A study of Homo sapiens with 6 samples.

Results

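Adenylyl cyclases make cyclic AMP, and protein kinase A (PKA) is the main kinase that cyclic AMP switches on. The 10 genes described here encode 4 adenylyl cyclases (ADCY3, ADCY6, ADCY7, ADCY9), 2 catalytic subunits of PKA (PRKACA, PRKACB), 3 regulatory subunits (PRKAR1A, PRKAR2A, PRKAR2B) and AKAP12, a scaffold that anchors the kinase. They were chosen by symbol as parts of this pathway, with earlier results of these data known. All 10 were among the 15024 genes of the deposited table, and all 10 passed the filter on low values that left 14420 genes for testing.

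The cells were MDA-MB-231, an established line from a triple-negative breast cancer, and all of them lacked MLL3, the product of the histone methyltransferase gene KMT2C. Every library came from cells that had spent 14 days in medium with 10 µM forskolin, a plant diterpene that activates adenylyl cyclases directly. Flow cytometry then separated CD44+ cells with high surface CD104 (the integrin beta-4 protein), called CD104high, from CD44+ cells with low or no CD104, called CD104low, and bulk RNA of 3 biological replicates of each population was sequenced. The study treats the former as a hybrid epithelial and mesenchymal state and the latter as mesenchymal. Both populations therefore share the cell line, the MLL3 loss and the forskolin, and the comparison is between 2 sorted states of treated cells, not between treated and untreated cells. The sources used here do not say whether the MLL3-null cells were 1 clone or whether replicates were separate cultures. The p-values therefore reflect only how far these samples spread, which may be technical.

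In the resting enzyme a pair of regulatory subunits holds a pair of catalytic subunits inactive. Cyclic AMP made by a cyclase binds the regulatory subunits, and the catalytic subunits are then free to phosphorylate their substrates, among them the transcription factor CREB. CREB binds the cyclic AMP response element, spelled TGACGTCA, or its half-site TGACG, which reads as CGTCA on the other strand. Anchoring proteins of the AKAP family tether the kinase, mostly through type II regulatory subunits, to membranes and organelles. Forskolin acts on the membrane-bound cyclases, and ADCY9 is known as the isoform that responds to it least.

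The start regions of the kinase genes were read for the letters of this element, since CREB is itself a PKA substrate and every library was under forskolin. RefSeq windows on GRCh38.p14, each running from 250 bases before to 50 bases after a transcript start, were matched for 8 of the 10 genes, with 20 windows in all. ADCY6 and ADCY9 had no matched window. The full element TGACGTCA stood in 2 of the 20 windows, both of PRKAR1A and both covering the same site, against 1.85% of the 35116 windows of all genes. At least 1 half-site TGACG, in either orientation and including those inside the full element, was found in 8 of the 20 windows, against 24.6% of all windows. These windows came from 5 of the 8 genes (PRKACA, PRKACB, PRKAR1A, PRKAR2A and ADCY3), a count without a share over all genes beside it. PRKAR1A gave several of them, and 2 of these share the site of the full element. A stretch is shown for the 4 kinase subunit genes with a match, with the matched letters in capitals, read 5′ to 3′ along the strand of the gene. For PRKAR1A the stretch is chr17:68512370-68512399 (plus strand), where the element begins at position -49 relative to one transcript start and at base 3 of a transcript that starts further upstream. PRKACA is on the minus strand and its stretch, chr19:14117763-14117886, holds the 124 bases before its start, with half-sites beginning at positions -49 and -4, the latter running over the end of the stretch. The PRKACB stretch is chr1:84077932-84078061 (plus strand), from position -147 to -18 of its first start, and that of PRKAR2A is chr3:48847861-48847890 (minus strand), around a half-site that begins at position -4.
PRKAR1A: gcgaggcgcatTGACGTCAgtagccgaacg
PRKACA: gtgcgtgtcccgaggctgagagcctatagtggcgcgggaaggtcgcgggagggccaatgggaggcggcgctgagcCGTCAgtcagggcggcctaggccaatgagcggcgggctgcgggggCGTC
PRKACB: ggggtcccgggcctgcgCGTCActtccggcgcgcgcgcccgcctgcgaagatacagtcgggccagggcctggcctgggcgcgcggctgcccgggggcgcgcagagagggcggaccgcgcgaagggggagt
PRKAR2A: cgcggtggcgtgCGTCAcaaccaggacgcc

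These matches are letters in a window and not measured binding. The regulatory subunit PRKAR1A, with the full element, did not pass the test between the populations. Of the 4 genes with half-sites only, PRKACA and PRKACB rose in CD104high while PRKAR2A and ADCY3 fell.

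Libraries held between 49791498 and 60069719 reads on the listed genes, and no value was 0. ITGB4, the gene of the sorted protein, was at 14508 to 19435 in CD104high and 1333 to 2273 in CD104low, which checks the sort labels. KMT2C gave 2095 to 3952 scaled reads per library, a whole-gene value without exon positions, which cannot check the deletion. It was 1.53-fold higher in CD104high (3816 ± 221 against 2507 ± 371, SD, n = 3; limma adjusted p = 0.0027) without overlap, although both populations are labelled as lacking it. Of the markers of the line, VIM, CD44 and EGFR were present in every library. The receptor genes ERBB2, ESR1 and PGR were listed as low or absent in this line. ERBB2 was nevertheless at 6219 to 8564, against 8805 to 12677 for EGFR, while ESR1 and PGR were not in the table. Of 12 markers of leukocytes, fibroblasts and endothelium 7 were in the table, and all 4 that could be tested (CD14, LAPTM5, PDGFRB, LUM) rose. Their summed level, over all 7, was 2598 to 4036 in CD104high and 1316 to 1850 in CD104low. Most of this sum was PDGFRB, at 1767 to 2728 in CD104high and 861 to 1369 in CD104low. LUM read 98.9, 97.1 and 359 in CD104high and 56.3, 40.4 and 51.7 in CD104low. PDGFRA, DCN and PECAM1 stayed at or below 14.6 in every library, and PTPRC, CD3E, CDH5 and VWF were among those not analysed here. The part of these markers in the results below was not tested.

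CD104high cells had more RNA for both catalytic subunits and for the cyclases ADCY9 and ADCY6, and less for both type II regulatory subunits, for ADCY3 and for AKAP12. ADCY7 and PRKAR1A did not pass. In all, 4 of the 10 genes rose and 4 fell, tested with limma at a Benjamini-Hochberg adjusted p under 0.05 over all 14420 genes, where 43.4% of genes were called. The background was 21.8% for higher and 21.6% for lower genes. In 8 of the 10 genes the libraries of the populations did not overlap, against 54.3% of all genes tested. The median log2 fold change was 0.06 over the 10 genes and 0.02 over all genes, and the median size of the change, ignoring its sign, was 0.37 and 0.30. The authors' deposited table called the same 8 genes in the same directions, with 45.7% of its genes called. In bulk RNA, a change in the share of cells that express a gene and a change in RNA per cell cannot be told apart.

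**Figure D1:**
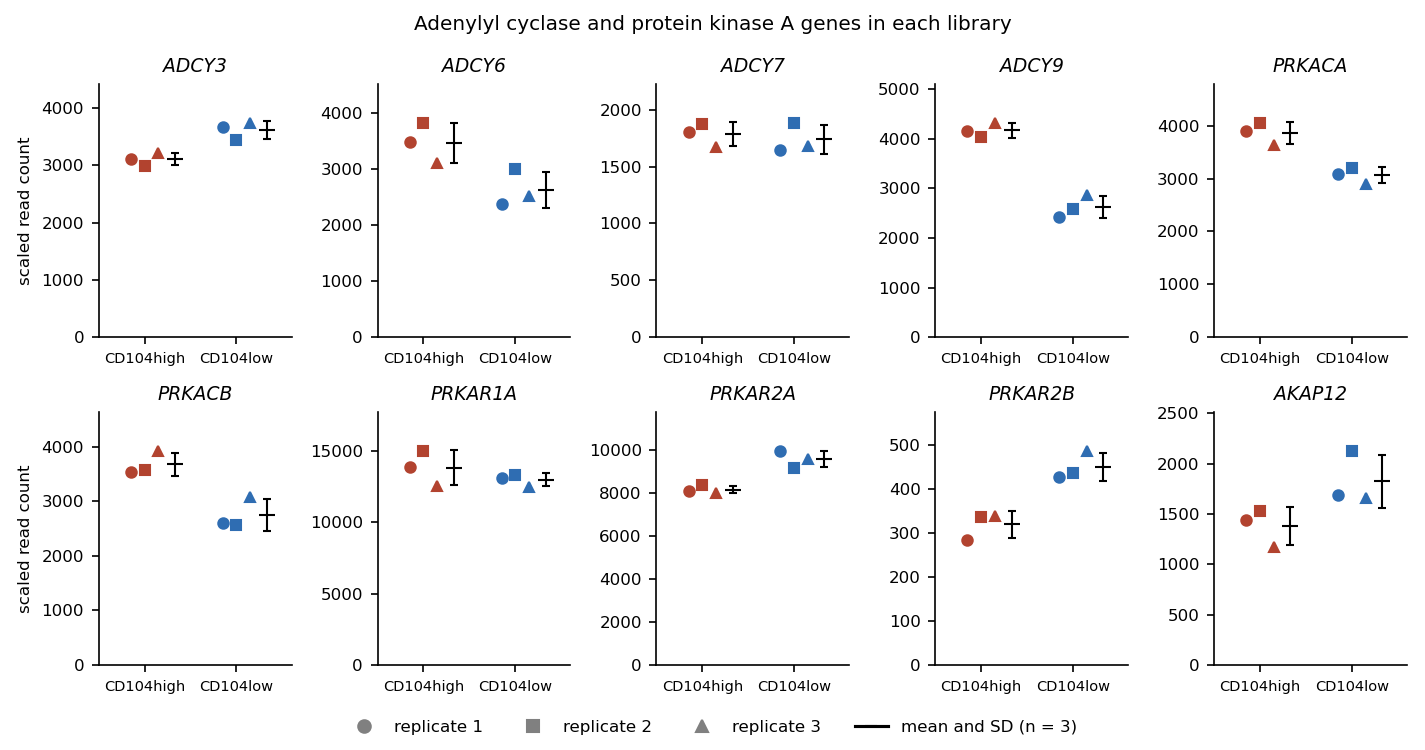
Scaled read counts (y axis, linear from 0, one scale per gene) of the 10 genes in the 3 CD104high (red) and 3 CD104low (blue) libraries, with marker shapes for the replicate number and black bars for the mean and SD. The populations do not overlap except in ADCY7 and PRKAR1A.

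Among the cyclases, ADCY9 (ENSG00000162104.10; GRCh38 chromosome 16, 3953387 to 4116185) had the largest change of the 10 genes on the deposited values. ADCY9 read 4157, 4027 and 4315 in CD104high replicates 1 to 3 and 2431, 2589 and 2864 in CD104low. The lowest CD104high library was thus well above the highest CD104low one. The rise was 1.59-fold, from 2628 ± 219 to 4167 ± 144 (SD, n = 3 each), which is 0.67 on the log2 scale (SE 0.08, limma adjusted p = 0.000483). It was called in each of the 6 fits that left out 1 library, at 0.61 to 0.73. After each library was corrected for transcript length and GC content, called the corrected value from here on, ADCY9 was at 0.33 (adjusted p = 0.0143), a smaller change than those of PRKACB, AKAP12, ADCY3, PRKAR2B and PRKAR2A on that scale.

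ADCY6 (chromosome 12, 48766194 to 48789037), a cyclase that calcium and inhibitory G proteins hold back, read 3484, 3828 and 3108 in CD104high and 2386, 2999 and 2523 in CD104low. The populations did not overlap, but the lowest CD104high library (3108) was close to the highest CD104low library (2999). The fitted rise was 1.32-fold, or 0.40 in log2 units (SE 0.11, limma adjusted p = 0.0162). This call was less stable than that of ADCY9. It ended without CD104high replicate 1 (adjusted p = 0.0543) or replicate 2 (0.0557), and without CD104low replicate 1 (0.0708) or replicate 3 (0.0522). The corrected value of ADCY6 was 0.13 (adjusted p = 0.25), no longer called.

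ADCY3 (chromosome 2, 24819169 to 24919839), a calmodulin-responsive cyclase known from olfactory neurons and primary cilia, went the other way. It read 3111, 2995 and 3211 in CD104high and 3665, 3448 and 3739 in CD104low, so that every CD104low library was higher. ADCY3 fell by 0.22 on the log2 scale (SE 0.07, limma adjusted p = 0.0248), or 1.16-fold. The call ended without CD104high replicate 1 (0.0752) or replicate 2 (0.0843) and without CD104low replicate 1 (0.0823) or replicate 3 (0.0893), at log2 fold changes of -0.19 to -0.22. Its corrected value was -0.44 (adjusted p = 0.0022).

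ADCY7 (chromosome 16, 50246137 to 50318135), an isoform that G protein beta-gamma subunits stimulate, read 1801, 1879 and 1673 in CD104high and 1649, 1884 and 1686 in CD104low. The populations overlapped, with a log2 fold change of 0.04 (95% confidence interval -0.15 to 0.23, limma adjusted p = 0.744). Its corrected value lay on the other side of 0, at -0.19 (adjusted p = 0.0547).

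Both catalytic subunit genes rose. PRKACA (ENSG00000072062.14; chromosome 19, 14091688 to 14118084), which encodes the widely expressed C-alpha subunit, read 3908, 4053 and 3642 in CD104high and 3086, 3199 and 2904 in CD104low. All CD104high libraries were above all CD104low libraries, and the rise was 1.26-fold (log2 fold change 0.34, SE 0.07, limma adjusted p = 0.00556). PRKACB (ENSG00000142875.19; chromosome 1, 84078062 to 84238498), the C-beta gene, read 3536, 3575 and 3927 in CD104high and 2595, 2571 and 3088 in CD104low. Again there was no overlap, with a 1.34-fold rise (log2 fold change 0.42, SE 0.09, limma adjusted p = 0.0055). Both calls held in all 6 fits that left out 1 library, at 0.30 to 0.38 for PRKACA and 0.38 to 0.51 for PRKACB. Corrected values were 0.25 for PRKACA and 0.60 for PRKACB, and both were still called.

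The regulatory subunits divided by type. PRKAR1A (chromosome 17, 68511780 to 68551319) encodes the type I subunit RI-alpha, whose loss frees catalytic activity and causes the inherited tumour syndrome Carney complex. It read 13875, 15028 and 12571 in CD104high and 13151, 13340 and 12479 in CD104low. These ranges overlapped, and the log2 fold change was 0.09 (95% confidence interval -0.08 to 0.26, limma adjusted p = 0.378). PRKAR1A passed only by its corrected value, 0.24 (adjusted p = 0.0314), so its call rests on that choice.

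PRKAR2A (chromosome 3, 48744597 to 48847846), the type II subunit RII-alpha, read 8097, 8358 and 8018 in CD104high and 9967, 9179 and 9606 in CD104low. Every CD104high library was lower, and the gene fell by 0.23 on the log2 scale (SE 0.06, limma adjusted p = 0.0123). Without CD104low replicate 1 the adjusted p was 0.0554. The corrected value of PRKAR2A was -0.34.

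PRKAR2B (chromosome 7, 107044649 to 107161811), the RII-beta subunit known mainly from brain and fat, was the least abundant of the 10 genes. It read 285, 337 and 339 in CD104high and 428, 437 and 487 in CD104low, again without overlap. PRKAR2B was 1.41-fold lower in CD104high (log2 fold change -0.49, SE 0.12, limma adjusted p = 0.0126), the largest fall among the 10 on the deposited values. The adjusted p was 0.0549 without CD104high replicate 1, and the corrected value was -0.35 (adjusted p = 0.045).

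AKAP12 (chromosome 6, 151239999 to 151358557), also called gravin, binds type II PKA and protein kinase C at the plasma membrane. It read 1441, 1532 and 1168 in CD104high and 1686, 2127 and 1654 in CD104low. The populations did not overlap, and AKAP12 had the widest spread between replicates in relative terms, with a coefficient of variation of 13.7% in CD104high and 14.5% in CD104low. AKAP12 fell by 0.40 on the log2 scale (SE 0.13, limma adjusted p = 0.0363). The call ended without replicate 1 or 3 of CD104high (0.0695 and 0.0876) and without replicate 1 or 2 of CD104low (0.0652 and 0.0919), with quantile normalization (0.0522), and in limma without its intensity trend (0.081). Its corrected value was larger, at -0.60 (adjusted p = 0.00296).

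**Figure D2:**
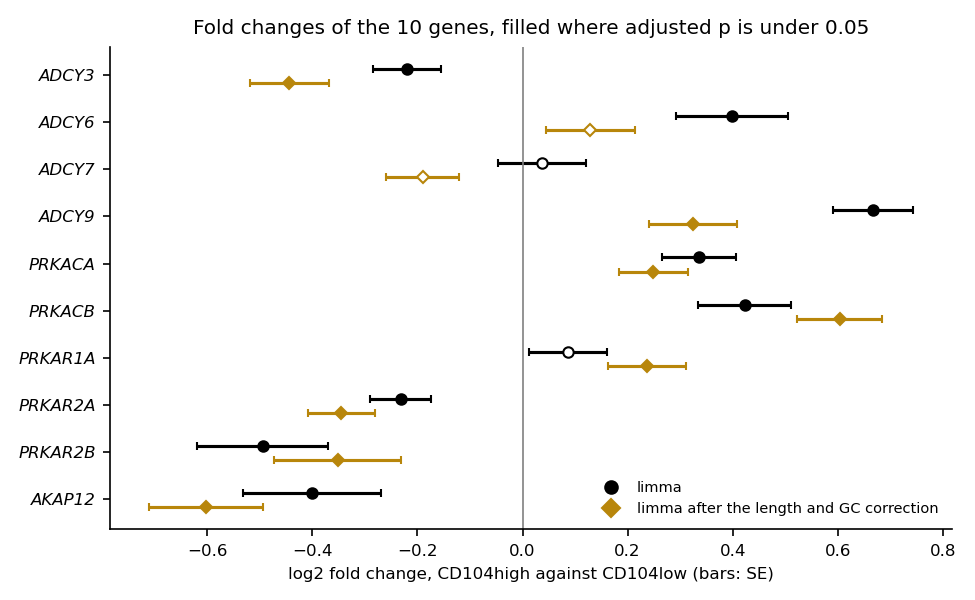
Log2 fold change of CD104high against CD104low (x axis; bars, SE) for the 10 genes, from limma on the deposited values (black circles) and after the length and GC correction (gold diamonds), filled where the adjusted p was under 0.05. The 4 cyclases all sit lower after the correction, and ADCY6 loses its call (0.40 to 0.13) while PRKAR1A gains one (0.09 to 0.24).

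The correction moved these genes in both directions. The 4 cyclases, with a GC content of 54.0% to 57.7% in their longest transcripts, moved down by 0.22 to 0.34, while PRKACB (37.9%), PRKAR1A (39.2%) and PRKAR2B (40.5%) moved up by 0.14 to 0.18. PRKACA (54.2%), PRKAR2A (45.5%) and AKAP12 (46.3%) shifted by -0.09, -0.11 and -0.20. The count stayed at 4 higher and 4 lower among the 10, with 40.7% of all genes called, but PRKAR1A took the place of ADCY6 among the higher genes. Whether these shifts remove a bias or part of the difference itself was not tested.

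Levels of different genes were compared as scaled reads per kilobase of the longest coding transcript in GENCODE 29. On this scale PRKAR1A was the most abundant of the 10, with 3195 ± 284 for CD104high and 3002 ± 105 for CD104low (SD over 3 libraries). In CD104high it was followed by PRKACA (1445 ± 77.8), PRKAR2A (1261 ± 27.5) and PRKACB (815 ± 47.7), and in CD104low PRKAR2A (1481 ± 61.0) stood above PRKACA (1144 ± 55.6). Among the cyclases ADCY3 led in both populations, at 615 ± 21.4 and 716 ± 29.9. ADCY9 (539 ± 18.7) and ADCY6 (537 ± 55.8) could not be separated in CD104high, and ADCY6 (408 ± 49.7) and ADCY9 (340 ± 28.4) overlapped in CD104low, as did ADCY3 and PRKACB there. ADCY7, AKAP12 and PRKAR2B closed the order in both populations, PRKAR2B at 85.5 ± 8.21 and 120 ± 8.52. With the median length of the coding transcripts instead, PRKACA came to 3432 in CD104high and 2718 in CD104low and overlapped PRKAR1A in CD104high. ADCY7 then stood above ADCY9 in CD104low (401 against 340) without overlap. In CD104high the mean of ADCY3 (658) stayed above that of ADCY6 (591) with this length, but their libraries overlapped. The ranks of ADCY6, ADCY7 and ADCY9 thus depend on which transcript is assumed. PRKACA kept its rank in both populations, but its level depends on that choice.

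As shares of the cyclase reads per kilobase over the 4 isoforms, ADCY3 made up 31.1% ± 1.59 in CD104high and 41.1% ± 2.60 in CD104low, and ADCY9 27.3% ± 1.40 and 19.5% ± 1.23 (SD over 3 libraries). The first place of ADCY3 was thus less marked in CD104high, where ADCY3, ADCY9 and ADCY6 (27.1% ± 2.38) had similar shares. Among the 3 regulatory genes of the 10, PRKAR1A held 70.3% ± 1.51 in CD104high and 65.2% ± 1.38 in CD104low. PRKAR2A held 27.8% ± 1.34 and 32.2% ± 1.27, and PRKAR2B 1.89% ± 0.23 and 2.62% ± 0.24. PRKAR1B, a further regulatory subunit gene outside the 10, entered neither these shares nor the ratios below. It was at 1827 ± 142 scaled reads in CD104high and 1807 ± 58.1 in CD104low (SD, n = 3). PRKACA held 63.9% ± 2.54 and 65.3% ± 3.44 of the catalytic subunit reads per kilobase. With the median coding length PRKACA held 79.7% and 80.6%, leaving 20.3% and 19.4% to PRKACB instead of 36.1% and 34.7%.

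The balance of subunits was then compared within each library, where the scaling of the library cancels. Summed scaled reads of the 3 regulatory genes over those of the 2 catalytic genes gave 2.99, 3.11 and 2.77 in CD104high and 4.14, 3.98 and 3.77 in CD104low. All CD104high libraries were lower, by 0.42 on the log2 scale or 1.34-fold, with a two-sided exact permutation p = 0.1, the smallest that 3 against 3 allows. Per kilobase the ratio was 2.01 ± 0.10 for CD104high and 2.63 ± 0.09 for CD104low (SD over 3 libraries). The difference stayed near this size, at -0.46 to -0.38 on the log2 scale without each library in turn and at -0.42 with the length and GC correction. These are ratios of RNA and not of subunit protein.

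The ratio of PRKAR1A to the sum of PRKAR2A and PRKAR2B was 1.66, 1.73 and 1.50 in CD104high and 1.27, 1.39 and 1.24 in CD104low, higher in all CD104high libraries (log2 difference 0.33, exact permutation p = 0.1). With the length and GC correction this difference was 0.58. PRKAR2B over PRKAR2A was lower in CD104high by 0.26 on the log2 scale (exact permutation p = 0.1), but by 0.01 after that correction. PRKACB over PRKACA overlapped between the populations (log2 difference 0.09, exact permutation p = 0.5), at -0.0037 without CD104high replicate 3 and 0.35 with the correction. Adjusted over the 4 ratios, the p-values were 0.133, 0.133, 0.133 and 0.5, and none could have passed 0.05 in this design.

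**Figure D3:**
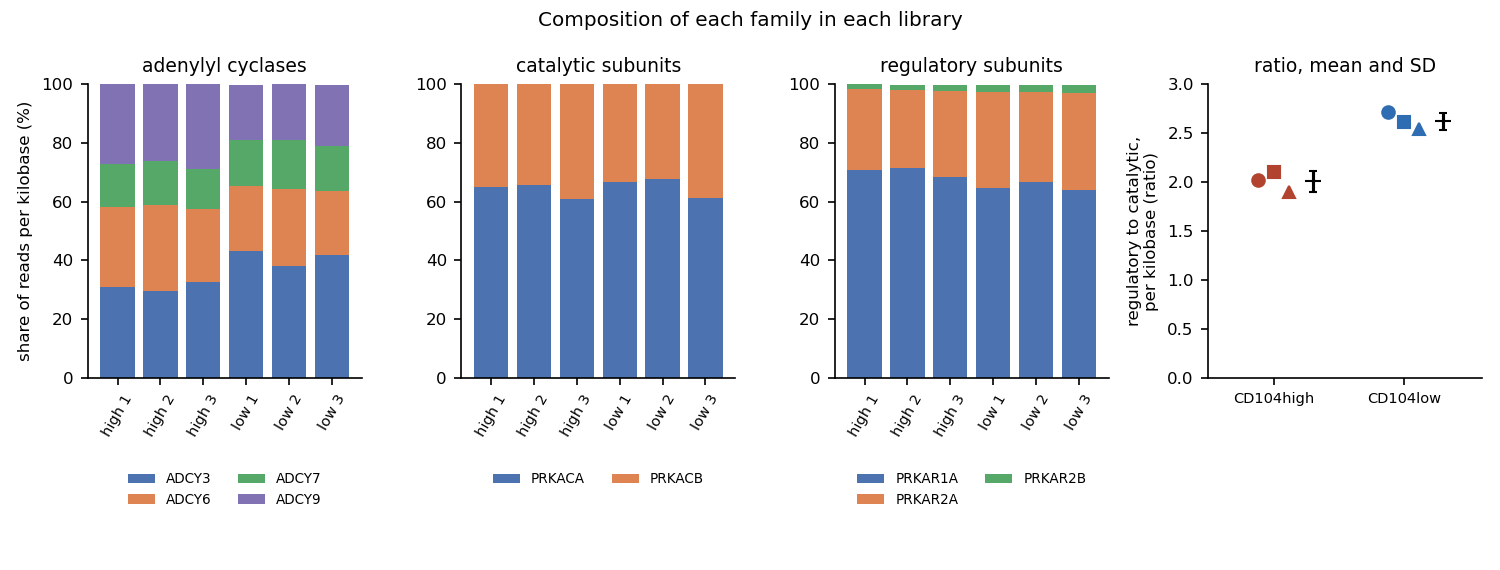
Stacked bars give each gene's share (%) of the reads per kilobase of its family among the 10 genes. The 6 libraries are high (CD104high) or low (CD104low), with replicates 1 to 3. The right panel gives the ratio of regulatory to catalytic subunits per kilobase among these genes, with mean and SD. Marker shapes stand for replicates 1 (circle), 2 (square) and 3 (triangle). The ratio is near 2.01 in CD104high and 2.63 in CD104low, without overlap.

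The rest of the pathway was described from 7 lists with 72 genes, of which 44 were in the table and 43 were tested. Of these 10 rose, 6 fell and 27 were not called, where 43.4% of all genes were called. Their median log2 fold change was 0.06.

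PKA has small protein inhibitors, PKI, which block free catalytic subunits and carry them out of the nucleus. Of 3 inhibitor genes 1 fell and 0 rose. PKIB read 12.8, 29.1 and 12.2 in CD104high and 48.3, 64.7 and 38.2 in CD104low, and fell by 1.51 on the log2(value + 1) scale (SE 0.40, limma adjusted p = 0.0148), a large fold of a weakly expressed gene. It lost its call without replicate 1 of CD104high (0.0557) or of CD104low (0.0526) and by its corrected value (-1.01, 0.0821). PKIA read 62.2, 156 and 55.8 against 175, 179 and 117, overlapping through CD104high replicate 2 (log2 fold change -0.91, adjusted p = 0.0824), and passed without that library (-1.37, 0.00582) and, with all 6 libraries, after quantile normalization (-1.16, 0.0363). PKIG, at 1725 to 2085 over the 6 libraries, overlapped, with a log2 fold change of -0.06 (95% confidence interval -0.26 to 0.13).

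Of the other PKA subunit and PKA-related genes 1 of 2 tested fell. PRKX, a cyclic AMP-dependent kinase encoded on the X chromosome, fell from 1217 ± 121 to 901 ± 10.2 (SD, n = 3 for both), by 0.43 on the log2 scale (limma adjusted p = 0.00674), and a close copy may share its reads. PRKAR1B, the RI-beta gene, was at 0.01 (adjusted p = 0.912). The remaining cyclases gave few reads, with ADCY5, singled out once its value was known, at 9.1 to 21.3 (log2 fold change 0.46, adjusted p = 0.366) and the soluble cyclase ADCY10, at 1.83 to 8.98, under the filter.

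Other anchoring proteins gave 3 rises and 1 fall among 12 genes, with a median log2 fold change of 0.01. AKAP13, which is also an activator of the GTPase RhoA, rose 1.94-fold, from 1277 ± 195 to 2458 ± 111, and AKAP9, a scaffold of the centrosome and Golgi, 1.44-fold, from 2840 ± 150 to 4097 ± 122 (SD, n = 3 each). AKAP6, an anchor of the nuclear envelope in muscle, rose 1.96-fold, from 211 ± 41.9 to 410 ± 26.3. AKAP1, which places PKA on mitochondria, fell by 0.39, from 3893 ± 140 to 2972 ± 177. Limma adjusted p-values of these genes were 0.000514, 0.000654, 0.00224 and 0.00271. By corrected values AKAP13 was at 0.62 instead of 0.95, and 3 genes of the list fell, PALM2AKAP2 (-0.31) and AKAP8 (-0.25) beside AKAP1.

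G protein alpha subunits carry receptor signals to cyclases, and 1 of 7 rose and 1 fell. GNAI3, an inhibitory subunit, fell by 0.42, from 18984 ± 524 to 14214 ± 708 (SD, n = 3 each; limma adjusted p = 0.00111). The gene GNAO1, of the inhibitory class too, rose by 0.38 (adjusted p = 0.0077), but its corrected value of 0.11 did not pass (adjusted p = 0.373). The stimulatory subunit gene GNAS, singled out once its value was known, stood at 50339 ± 754 and 48151 ± 838, a log2 fold change of 0.06 (95% confidence interval -0.06 to 0.19, adjusted p = 0.382). Its populations did not overlap, but the difference was small against the fitted error. By its corrected value GNAS lay on the other side of 0, at -0.13 (limma adjusted p = 0.104).

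Of 12 tested Gs-coupled receptor genes, whose products stimulate cyclases, 5 rose, with a median log2 fold change of 0.28 over the list. VIPR1, the receptor for vasoactive intestinal peptide, read 1912, 1733 and 2380 in CD104high and 396, 557 and 464 in CD104low. That rise of 4.25-fold (log2 fold change 2.09, SE 0.15, limma adjusted p = 0.000202) was larger than any among the 10 genes. GIPR (1.34), PTH1R (1.25), MC1R (0.74) and the prostaglandin E2 receptor gene PTGER4 (0.67) rose too, with adjusted p-values of 0.00626, 0.00832, 0.0162 and 0.0145. MC1R missed the threshold without replicate 1 (0.0655) or 2 (0.0514) of CD104high or replicate 1 of CD104low (0.0577). PTGER4 missed it without replicate 1 of CD104low (0.0621) and with quantile normalization (0.0517).

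Other proteins that bind cyclic AMP gave 1 rise and 1 fall among 6 genes. The channel gene HCN3 rose by 0.75 (limma adjusted p = 0.00366), and POPDC3, of the Popeye family, fell by 0.53 (adjusted p = 0.0109), with a corrected value of -0.17 (adjusted p = 0.207). The exchange factor genes RAPGEF3 (-0.50) and RAPGEF4 (1.43), singled out once their values were known, missed the threshold (adjusted p = 0.149 and 0.0858). By its corrected value RAPGEF3 passed, at -0.78 (adjusted p = 0.0316).

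**Figure D4:**
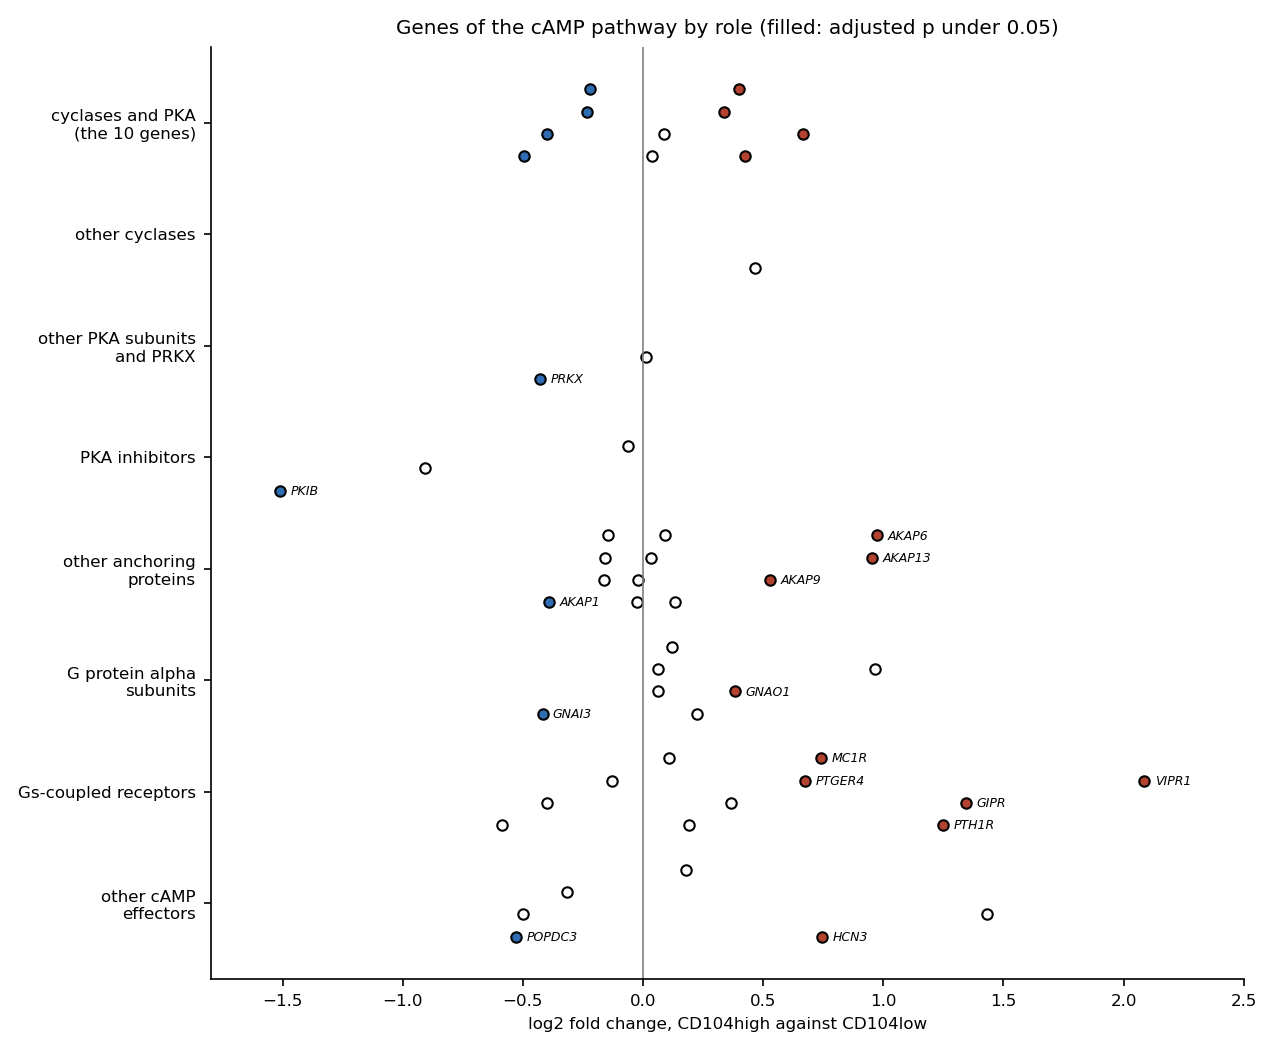
Log2 fold change of CD104high against CD104low (x axis) for tested genes of the 10 and of the 7 pathway lists (rows), red where higher and blue where lower at a limma adjusted p under 0.05, open where not called; vertical offsets within a row only separate points. The 10 genes stay between -0.49 and 0.67, while VIPR1 reaches 2.09 and PKIB -1.51.

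For the 2 genes at the ends of the range, the closest profiles over the 6 libraries were sought among 12510 other genes with a mean of at least 50. ADCY9 was most like ABCA1 (Pearson r = 0.999), PGRMC2 (0.998) and RAB13 (0.998), and PRKAR2B most like KDM1A (0.998), RABEP1 (0.994) and the cyclic AMP phosphodiesterase PDE8A (0.993). The 6 points fall into 2 populations and share library scaling, and 920 genes had an r above 0.95 with ADCY9 and 261 with PRKAR2B, so these correlations describe the libraries only. Likeness was in shape and not in size, since ABCA1 rose by 1.45 on the log2 scale and PGRMC2 by 0.18.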

How the data were processed

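Bulk RNA-seq of 6 samples, 3 per population, was analysed. Salmon 1.3.0, FastQC, DESeq2 and the build GRCh38 stand in the submitters' processing notes, with no roles given. For every gene the authors deposited, per the file headers, 6 library columns (the values are a scaled read signal), their log2 fold change and its log2 standard error, and a raw and an adjusted p-value. Within each library 100% of values were whole multiples (within 0.01) of 1 step, and the numbers so recovered served only for count tests run as alternatives.

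The main test was limma 3.58.1 (R 4.3.3) with an intensity trend on log2(value + 1), for genes with at least 10 in at least 3 samples. Fold changes on this scale understate changes of low genes. Population was the only term. Ratios were tested by exact permutation. Positions, lengths and GC content came from GENCODE 29 (GRCh38), matched for 14994 genes (99.8%), and promoter windows from RefSeq (GRCh38.p14).

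Replicates differed beyond sampling noise (chi-square per degree of freedom 12.74 to 44.62). The members and lists were chosen with earlier results of these data known. Named were the 10 genes, called genes of each list (up to 6 by smallest p, and all of a list of 3 or fewer), the 3 closest profiles of the genes at either end of the range, ITGB4 and KMT2C. Other genes named are marked or spell out a count, and 1 receptor gene that the rule names, with the counts of receptors that fell, is neither reported nor plotted here. Ratios and levels per median length, and corrected ratios, were added after seeing the data. Other alternatives were other scalings, filters, pseudocounts, tests (edgeR 4.0.16, DESeq2 1.42.0), a replicate block, a loess correction for length and GC content (span 0.3), and leaving out each library. Scripts were tested on simulated data.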

Additional observations from a re-analysis of the deposited data

How the results depend on the processing

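Without each library in turn, 4101 to 6395 genes were called (2092 to 3198 higher, 2009 to 3197 lower) against 6257, and 4 to 7 of the 10 genes (3 to 4 higher, 1 to 3 lower) against 8. On the recovered reads edgeR called 6267 genes and DESeq2 6613, each with 8 of the 10. The lowest counts came without CD104low replicate 1 (4101 genes) and without replicate 1 of either population (4 of the 10: 3 higher, 1 lower). ADCY9, PRKACA and PRKACB were called in all 6 of these fits and in all 12 alternatives that kept every library. With 1 library left out at a time, the log2 difference of PRKACB over PRKACA lay between -0.0037 and 0.21. That of PRKAR1A over the type II genes lay between 0.29 and 0.39, and that of PRKAR2B over PRKAR2A between -0.33 and -0.19. Regulatory over catalytic genes lay between -0.46 and -0.38. With all libraries and the length and GC correction, these differences were 0.35, 0.58, -0.01 and -0.42 in this order. Among the alternatives with all libraries, AKAP12 missed the threshold with quantile normalization (limma adjusted p = 0.0522) and without the trend (0.081). ADCY6 missed it with the length and GC correction (0.25) and with the replicate block plus that correction (0.0741). Over all alternatives and left-out libraries, the pathway lists gave 0 to 2 PKA inhibitors that fell (1 in the main test), 1 to 3 anchoring proteins that fell (1) and 3 to 5 that rose (3), 0 to 2 G alpha genes that rose (1), 3 to 5 Gs-coupled receptors that rose (5), 1 to 2 effectors in either direction (1 each) and 0 to 1 other cyclases that fell (0). The counts of the other PKA subunits, of G alpha genes that fell and of cyclases and inhibitors that rose did not move. The single cyclase was ADCY10, tested only without the filter.

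Replicate numbers were used as a block because both populations carry numbers 1 to 3. Same-numbered libraries deviated together with correlations of 0.084, 0.359 and 0.324, so not every pair exceeded 0.1 and the numbers were not taken as pairs, although each library correlated best with its own number. In 9 of the 10 genes the highest library had the same number in both populations, replicate 2 in 5 genes and replicate 3 in 4. The share of all tested genes with this feature was not computed, so the count cannot be read as particular to the 10. With the replicate block 7876 genes (54.6%) and 8 of the 10 (4 higher, 4 lower) were called, and the exact sign-flip test of each ratio gave p = 0.25 for all 4, the smallest that 3 pairs allow. PKIA passed with the block (-0.91, adjusted p = 0.007) and with the block and correction (-0.73, 0.0167). With the block and the length and GC correction 7678 genes (53.3%) and 9 of the 10 were called, and ADCY7 was reversed, at -0.19 (adjusted p = 0.0223).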
